A study of Mus musculus with 6 samples.

Results

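LIM homeodomain genes encode transcription factors that join a pair of zinc-binding LIM domains to a DNA-binding homeodomain. The LIM domains bind the adaptor LDB1, and competition for that adaptor with LIM-only proteins sets which complexes form on DNA. In the brain these factors specify regions and neuron types, and several keep being expressed in the adult nuclei that they help to form. Of the 23282 entries of the deposited count tables, 9 were examined here by gene symbol: Lhx1, Lhx2, Lhx5, Lhx6, Lhx8, Lhx9, Isl1, Lmx1a and Lmx1b. Each of the 9 was found once in the tables, and 8 of them passed the filter on low counts, the exception being Lmx1b.

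The samples were forebrain RNA from C57BL/6J male mice of 8 to 10 weeks, with the olfactory bulbs and cerebellum removed and 1 hemisphere used for RNA. Water avoidance stress (WAS) is an acute psychological stressor in which a mouse stands for 1 h on a small platform surrounded by water. In the control procedure no water surrounded the platform, so that confinement to the platform for 1 h was common to both groups. There were 3 libraries labelled WAS and 3 labelled control, each from 1 animal, with no transgene or drug in either group. The comparison asks which transcripts of the forebrain differ after 1 h of stress. The headings of the count columns begin WC for the 3 WAS libraries and WS for the 3 control libraries, and neither heading is defined in the sources used here. Groups follow the labels, and each direction given here holds only if the labels are right, and an exchange of labels would invert it.

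Total counts lay between 9248520 and 10502029 per library. QuantSeq 3' mRNA-Seq, the method used, gives tags from the end next to the poly(A) tail, so levels are given as CPM (counts scaled to a library total of 1000000) without division by transcript length and are compared between libraries, not between genes. The removal of the cerebellum and olfactory bulbs was set beside marker genes of both. Of 7 cerebellar genes, 5 passed the filter on low counts, with summed levels of the list of 39.6 to 40.9 CPM under the WAS label and 36.6 to 43.1 CPM under the control label. Pcp2 (191 to 252 counts) and Car8 (137 to 174), genes of Purkinje cells, were detected in every library, whereas the granule cell gene Gabra6 had at most 1 count. Of 5 olfactory bulb genes, 4 passed the filter, with sums of 7.68 to 12.02 and 5.30 to 10.3 CPM. Cdhr1 had 18 to 34 counts, Doc2g 19 to 36 and Tbx21 at most 6, so the markers of both regions were low or at the floor for some genes and detected for others. En1, a homeodomain gene of the midbrain and anterior hindbrain, had 124, 1 and 157 counts across WAS replicates 1, 2 and 3, against 0 in each control library. WAS replicates 1 and 3 thus stood apart from the other 4 libraries in a marker of another region, and the calls of the members and of the lists in which genes were called are given with and without them.

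Of the 8 members tested, 4 met the criteria of the study, a fold change of 1.5 or more with p under 0.05 before adjustment, and all 4 were higher in the libraries labelled WAS (Lhx1, Lhx5, Lhx9 and Lmx1a). Among all 15239 genes tested, 2.49% met these criteria in either direction with 1.82% higher and 0.676% lower. Lmx1a passed the filter on low counts only through the WAS libraries, where it is high, so its call is a description and lends no support to the count. Of the 7 members whose mean passed that filter in each group, 3 met the criteria, against 2.27% of the 14934 such genes. After Benjamini-Hochberg adjustment of the edgeR quasi-likelihood p-values, 0 members had an adjusted p under 0.05, as did 0 of all genes (0%). An unadjusted p under 0.05 was found for 4 of the 8 members, against 7.24% of all genes tested, and DESeq2 gave 22 genes with an adjusted p under 0.05, of which 0 were members. The groups failed to overlap for 1 member, Lmx1a, against 11.7% of all genes. The median log2 fold change was 0.084 over the 7 members that passed the filter in each group, 1.23 with Lmx1a added, and 0.00088 over all genes tested. The calls of Lhx1, Lhx5 and Lhx9 rested on WAS replicates 1 and 3, and Lmx1a fell under the filter on low counts without them. In a comparison without these 2 libraries, chosen after seeing the data and resting on 1 library labelled WAS that is assumed to vary like the controls, 0 of the 7 members still tested met the criteria, where 2.30% of all genes did. On quantile-normalized log2 counts with limma 1 member, Lmx1a, met them, against 2.71% of all genes. Without WAS replicate 2, 6 of the 7 members tested met the criteria, 3 higher and 3 lower (5.41% of all genes) and 3 passed an adjusted p of 0.05 (3.22% of all genes).

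**Figure D1:**
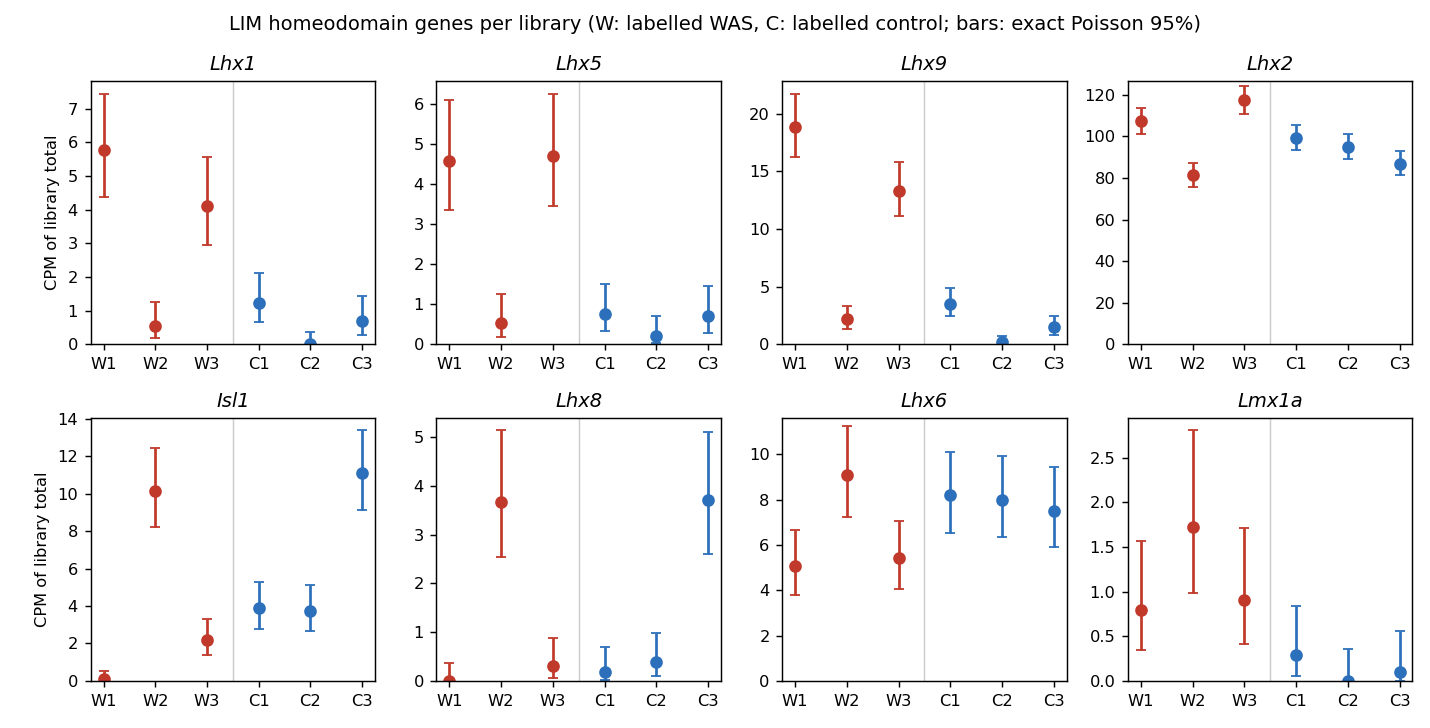
Level in CPM of each of the 8 members tested, in the 3 libraries labelled WAS (W1 to W3, red) and the 3 labelled control (C1 to C3, blue), with exact Poisson 95% intervals of the count, which cover counting error only. Lhx1, Lhx5 and Lhx9 were high in W1 and W3, Isl1 and Lhx8 were high in W2 and C3, and each vertical axis starts at 0.

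The first group of members are genes of the diencephalon. Lhx1 and Lhx5 are closely related factors of the developing prethalamus and hypothalamus, and Lhx1 is also needed for coupling among neurons of the suprachiasmatic nucleus. Lhx9 is a regulator of thalamic and other diencephalic neurons. The promoters of Lhx1 and Lhx9 are shown because these genes had nearly the same order of libraries. The stretches are the 250 bases before the transcription start in RefSeq (GRCm38.p6), written in the direction of the gene, at chr11:84525535-84525784 (minus strand) for Lhx1 and chr1:138842445-138842694 (minus strand) for Lhx9, and capitals mark a CCAAT box or its reverse complement ATTGG.
Lhx1: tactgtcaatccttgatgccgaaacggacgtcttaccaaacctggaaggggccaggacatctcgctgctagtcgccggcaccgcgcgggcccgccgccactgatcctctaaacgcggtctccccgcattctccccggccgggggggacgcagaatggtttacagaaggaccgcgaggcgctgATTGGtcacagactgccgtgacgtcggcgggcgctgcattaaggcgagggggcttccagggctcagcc
Lhx9: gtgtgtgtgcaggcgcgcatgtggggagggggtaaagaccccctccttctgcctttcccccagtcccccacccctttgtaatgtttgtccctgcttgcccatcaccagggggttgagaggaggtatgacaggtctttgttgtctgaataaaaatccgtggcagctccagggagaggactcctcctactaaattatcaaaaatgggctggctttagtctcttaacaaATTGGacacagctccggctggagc
Each of the 2 stretches held 1 CCAAT box, a sequence found on either strand in 33.8% of all 32851 promoter windows of this length. Neither held TAATTA, a core sequence recognised by many homeodomain proteins and its own reverse complement, which was present in 4.84% of the windows. Their base composition differed, with 64.8% G and C and 26 CG dinucleotides for Lhx1 and 53.6% and 4 for Lhx9. These matches describe the letters only. The start used for Lhx9 lies inside the span of that gene given below, so its stretch precedes an internal start, unlike that of Lhx1.

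In GRCm38 (GENCODE M21), Lhx1 spans chr11:84518284-84525535 and Lhx9 chr1:138825186-138848577, both on the minus strand, and Lhx5 spans chr5:120431699-120441223 on the plus strand, where it overlaps the antisense gene Gm27199. Lhx1 had 58, 5 and 41 counts in the WAS libraries, replicates 1 to 3, and 13, 0 and 7 in the control libraries. WAS replicates 1 and 3 were thus high, and WAS replicate 2 lay inside the range of the controls. Lhx1 was measured at 3.47 ± 2.67 CPM (SD, n = 3) under the WAS label and at 0.647 ± 0.621 CPM (SD, n = 3) under the control label. SE stands for the standard error, and edgeR adjusted p for the Benjamini-Hochberg value over all genes tested. Lhx1 was higher under the WAS label by 2.37 on the log2 scale (SE 0.87, edgeR adjusted p = 0.616). Lhx1 lost the criteria with DESeq2, with limma, without WAS replicate 1 (1.80) and without control replicate 2 (1.80), and without WAS replicate 2 its log2 fold change was 2.87 with an adjusted p of 0.0211.

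Lhx5 had 46, 5 and 47 counts with the WAS label and 8, 2 and 7 with the control label. The order of the libraries was that of Lhx1 except that WAS replicates 1 and 3, whose counting intervals overlapped, changed places. This gave 3.27 ± 2.37 CPM (SD, n = 3) under the WAS label against 0.552 ± 0.313 CPM (SD, n = 3) under the control label, and a log2 fold change of 2.51 (SE 0.74, edgeR adjusted p = 0.539). Without WAS replicate 2 the log2 fold change was 3.01 with an adjusted p of 0.00346, and with limma the gene lost the criteria (2.00). The last 500 bases of its longest GENCODE M21 transcript hold a simple repeat that occurs as a stretch of 50 bases in 448 other genes, and since multiple alignments were counted, reads of that repeat could have entered the Lhx5 counts. Such a repeat also links Lhx6 to 13 genes. Outside simple repeats, 0 genes shared such a stretch with any of the 9 members.

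Lhx9 had 190, 20 and 133 counts in WAS replicates 1, 2 and 3, and 37, 2 and 15 counts in control replicates 1, 2 and 3. WAS replicates 1 and 3 lay above all other libraries and apart from each other beyond their counting intervals, and control replicate 2 lay below all others. The mean was 11.4 ± 8.51 CPM (SD, n = 3) under the WAS label and 1.74 ± 1.68 CPM (SD, n = 3) under the control label. The log2 fold change was 2.68 (SE 0.75, edgeR adjusted p = 0.514), and with 1 library left out it ranged from 2.11 (WAS replicate 1) to 3.71 (control replicate 1). Without WAS replicate 2 the edgeR adjusted p was 0.00207, and with all 6 libraries and the replicate number as a block it was 0.00322. In the comparison without WAS replicates 1 and 3 the log2 fold change of Lhx9 was 0.27 (SE 0.84), and those of Lhx1 and Lhx5 were -0.29 (SE 1.19) and -0.067 (SE 1.01).

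Lhx2, the selector gene of the cerebral cortex and the closest relative of Lhx9, behaved otherwise. Its counts were 1079, 752 and 1171 with the WAS label and 1044, 986 and 867 with the control label, or 101.9 ± 18.6 CPM (SD, n = 3) against 93.8 ± 6.35 CPM (SD, n = 3). WAS replicates 1 and 3 were again the 2 highest libraries, but the highest library was only 1.44 times the lowest. The groups overlapped, and the log2 fold change of 0.084 (95% interval -0.16 to 0.33, edgeR adjusted p = 0.943) changed sign without WAS replicate 3 (-0.029). Within a library, the log2 ratio of Lhx2 to Lhx9 counts was taken with 0.5 added to each count. It was 2.503, 5.20 and 3.13 in the WAS libraries and 4.80, 8.62 and 5.81 in the control libraries. This ratio, which does not depend on the scaling between libraries, was lowest in WAS replicates 1 and 3. GENCODE M21 places 2 antisense genes over Lhx2 (chr2:38339281-38369733, plus strand, GRCm38). The strand setting of the counting is not stated, so reads of Lhx2 or Lhx5 and of their antisense genes cannot be told apart.

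The next group are regulators of ventral telencephalic neurons. Isl1 acts in striatal neurons of the direct pathway, in cholinergic neurons and in the arcuate hypothalamus. Lhx8 specifies cholinergic neurons of the basal forebrain and striatum, and Lhx6 specifies the parvalbumin and somatostatin interneurons that arise in the medial ganglionic eminence (MGE). The promoters of Isl1 and Lhx8 are shown because these genes were both highest in the same 2 libraries, 1 from each group. The 250 bases before the RefSeq start lie at chr13:116309689-116309938 (minus strand) for Isl1 and chr3:154330561-154330810 (minus strand) for Lhx8, with CCAAT boxes in capitals.
Isl1: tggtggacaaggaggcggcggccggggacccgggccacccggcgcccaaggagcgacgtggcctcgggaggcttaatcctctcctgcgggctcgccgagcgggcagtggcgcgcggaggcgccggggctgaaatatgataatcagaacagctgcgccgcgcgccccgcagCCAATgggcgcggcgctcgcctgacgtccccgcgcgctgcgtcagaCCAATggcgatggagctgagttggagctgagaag
Lhx8: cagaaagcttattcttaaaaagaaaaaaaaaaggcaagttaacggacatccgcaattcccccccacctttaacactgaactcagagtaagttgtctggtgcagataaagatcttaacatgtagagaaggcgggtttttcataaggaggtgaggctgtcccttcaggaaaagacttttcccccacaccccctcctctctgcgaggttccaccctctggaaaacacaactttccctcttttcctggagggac
Isl1 held 2 CCAAT boxes and Lhx8 held 0, and TAATTA was in neither stretch. The stretch of Isl1 had 71.2% G and C and 33 CG dinucleotides, and that of Lhx8 had 46.0% and 4.

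In GRCm38 the minus strand holds Isl1 at chr13:116298281-116309689, Lhx8 at chr3:154306294-154330659 and Lhx6 at chr2:36081953-36105408. There Lhx6 overlaps Gm27953, a gene of the misc_RNA class on the same strand, so strand could not separate the reads of these genes. Isl1 had 1, 94 and 22 counts in the WAS libraries, replicates 1 to 3, and 41, 39 and 111 in the control libraries. Control replicate 3 and WAS replicate 2 were the highest, with overlapping counting intervals, and WAS replicate 1 was nearly devoid of the transcript. The highest library was 112 times the lowest in CPM, although the lowest rests on 1 count with a Poisson 95% interval of 0.0253 to 5.57 counts. The means were 4.16 ± 5.31 CPM (SD, n = 3) under the WAS label and 6.26 ± 4.21 CPM (SD, n = 3) under the control label. The log2 fold change was -0.65 (95% interval -2.24 to 0.95, edgeR adjusted p = 0.930), so a difference between the labelled groups was not detectable beside the spread within them. That value moved to -2.47 without WAS replicate 2 (adjusted p = 0.0759), -0.35 without WAS replicate 3, -0.069 without WAS replicate 1 and 0.073 without control replicate 3.

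Lhx8 had 0, 34 and 3 counts with the WAS label and 2, 4 and 37 counts with the control label. WAS replicate 2 and control replicate 3 lay above the remaining 4 libraries beyond counting error, and those 4 did not differ from their neighbours in order beyond it. A count of 0 in WAS replicate 1 allows a level of up to 0.298 CPM by the limit of 3 counts, which is one-sided, unlike the Poisson intervals. The level was 1.33 ± 2.04 CPM (SD, n = 3) under the WAS label and 1.43 ± 1.98 CPM (SD, n = 3) under the control label, with a log2 fold change of -0.17 (95% interval -2.47 to 2.14, edgeR adjusted p = 0.987). Leaving out 1 library took it from -3.19 (WAS replicate 2) to 2.10 (control replicate 3), and it was also positive without WAS replicate 1 (0.42) or WAS replicate 3 (0.31).

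Lhx6 varied least in this group. Its counts were 51, 84 and 54 with the WAS label and 86, 83 and 75 with the control label, which is 6.52 ± 2.23 CPM (SD, n = 3) against 7.90 ± 0.346 CPM (SD, n = 3). WAS replicates 1 and 3 were the 2 lowest libraries, WAS replicate 2 was the highest, and the groups overlapped. The log2 fold change was -0.32 (95% interval -0.81 to 0.17, edgeR adjusted p = 0.862), and it was -0.63 without WAS replicate 2, past the criteria of the study. The log2 ratio of Lhx6 to Lhx8 counts, with 0.5 added to each count, was 1.29 in WAS replicate 2 and 1.01 in control replicate 3, and between 3.96 and 6.69 in the other 4 libraries. Lhx6 and Lhx8, which are both expressed in the embryonic MGE, thus did not vary in proportion across these libraries.

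The last members are the relatives Lmx1a and Lmx1b, factors of midbrain dopamine neurons, of which Lmx1b is also needed in serotonin neurons. Lmx1a lies at chr1:167689237-167848741 (plus strand, GRCm38) and Lmx1b at chr2:33560965-33640511 (minus strand). Lmx1a had 8, 16 and 9 counts in the WAS libraries, replicates 1 to 3, and 3, 0 and 1 in the control libraries. The groups did not overlap, and WAS replicate 2 was the highest library, but the control counts alone would not have passed the filter on low counts. The level was 1.14 ± 0.512 CPM (SD, n = 3) under the WAS label and 0.129 ± 0.145 CPM (SD, n = 3) under the control label. The log2 fold change was 2.98 (SE 0.82, edgeR adjusted p = 0.514). The control side rests on 4 counts in all, so that the ratio of summed counts per total, 8.69, has a counting interval of 3.09 to 33.8. Lmx1a kept the criteria under each of the 10 other settings, with all or 5 libraries, in which it was tested, and it fell under the filter on low counts without WAS replicate 2 and with a mean of at least 10 counts required. Lmx1b had 0 counts in every library, which by the same limit of 3 counts allows a level of up to 0.286 to 0.324 CPM, so that no ratio of Lmx1a to Lmx1b can be given.

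**Figure D2:**
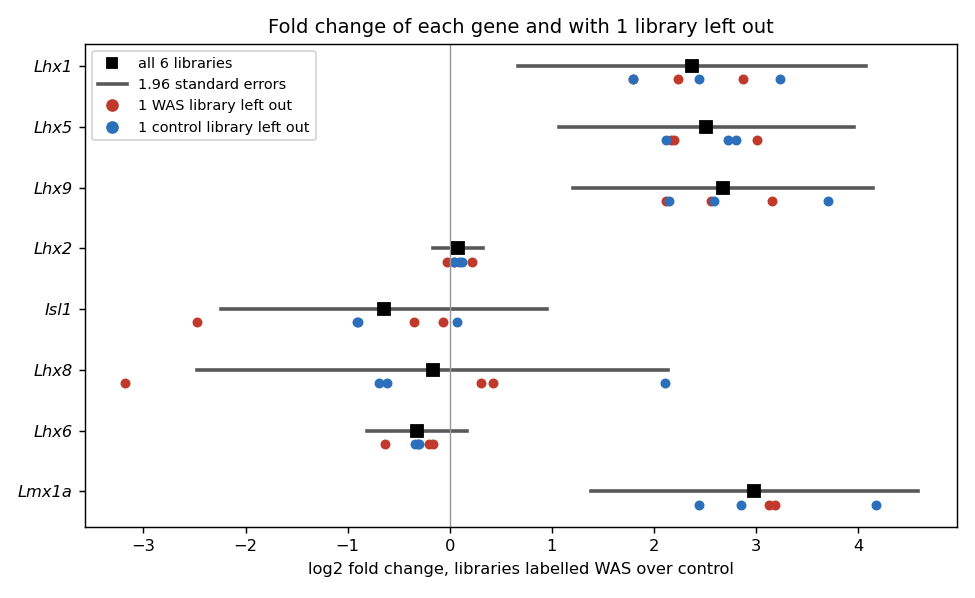
Log2 fold change of each member, libraries labelled WAS over those labelled control, from all 6 libraries (squares, with bars of the 95% interval) and with 1 library left out (red circles for a WAS library, blue for a control library). The values of Lhx1, Lhx5, Lhx9 and Lmx1a stayed above 0 in these fits, whereas those of Isl1, Lhx8 and Lhx2 fell on both sides of 0.

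Most members varied widely between libraries of the same group. The biological coefficient of variation within groups, edgeR's estimate of spread beyond counting error, was 14.0% for all genes in common. It was 100.5% for Lhx8, above that of 99.99% of the genes tested, 73.4% for Isl1, 66.6% for Lhx1, 61.6% for Lhx9, 53.6% for Lhx5 and 37.3% for Lmx1a, the last above that of 92.5% of the genes tested. Lhx2 and Lhx6, the members with the steadiest counts, were at 11.8% and 19.6%, above that of 37.18% and 68.65% of the genes tested. WAS replicate 2 lay inside the range of the controls for 5 of the 8 members tested (48.2% of all genes), WAS replicate 3 for 1 (42.0%) and WAS replicate 1 for 0 (39.4%).

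The order of the libraries split the members. WAS replicates 1 and 3 were the 2 highest libraries for 4 of 8 members, Lhx1, Lhx2, Lhx5 and Lhx9, against 12.1% of all genes tested. They were the 2 lowest for 2 members, Isl1 and Lhx6, against 11.4% of all genes. WAS replicate 2 and control replicate 3 were the 2 highest for 2 members, Isl1 and Lhx8, against 6.35% of all genes. These orders had been seen before they were counted, so they are given as a description. Likeness between members was measured as the root mean square difference of their profiles of log2(CPM + 0.5), each centred on its mean over the 6 libraries. Among the 28 pairs of members, the smallest differences were 0.304 for Lhx1 and Lhx5 and 0.427 for Lhx1 and Lhx9, and the largest was 2.83 for Lhx9 and Isl1. Isl1 and Lhx8 differed by 0.762.

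The genes nearest by the same measure to the members with a mean of at least 50 counts (Isl1, Lhx9, Lhx6 and Lhx2) were sought among 11167 other genes with such a mean. For Isl1 the nearest gene was Chat, the acetylcholine synthesis enzyme, at 0.184, with 10, 182 and 66 counts with the WAS label and 116, 92 and 230 with the control label. It was followed by the striatal genes Ppp1r1b (0.436), which encodes DARPP-32, and Penk (0.438), which encodes the enkephalin precursor. For Lhx9 the nearest was Shox2 (0.424), a homeodomain gene of the thalamus, with 1159, 133 and 732 counts with the WAS label and 119, 17 and 65 with the control label, followed by C1ql2 (0.470) and Tfap2b (0.524). The profiles of Lhx6 and Lhx2 varied less, with root mean squares of 0.293 and 0.176 against 1.64 for Lhx9 and 1.43 for Isl1. Their nearest genes were 3110039M20Rik, Skil and Spdya (0.0345 to 0.0486) for Lhx6 and Efr3a, Cptp and Ttll5 (0.0338 to 0.0403) for Lhx2.

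**Figure D3:**
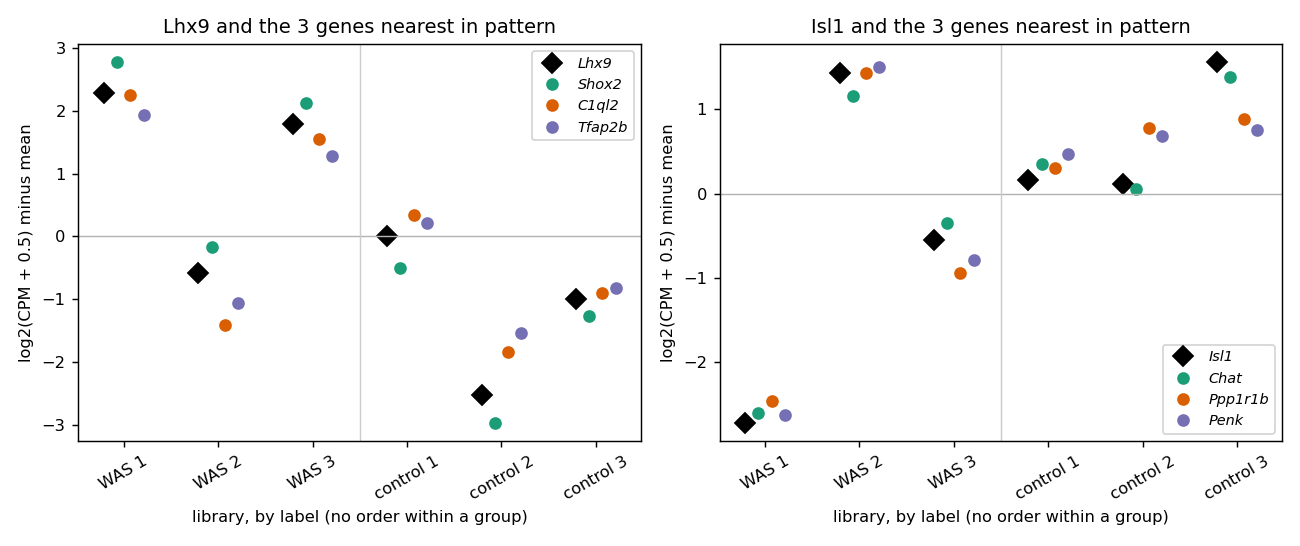
Level of Lhx9 (left) and Isl1 (right), as black diamonds, and of the 3 genes nearest to each in pattern (coloured circles), as log2(CPM + 0.5) minus the mean over the 6 libraries. Lhx9 and its neighbours were highest in WAS replicates 1 and 3, and Isl1 and Chat were highest in WAS replicate 2 and control replicate 3 and lowest in WAS replicate 1.

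Marker lists of some regions in which the members act shared their high libraries. Of 15 thalamic genes tested, 7 met the criteria of the study and all 7 were higher under the WAS label, at a median log2 fold change of 0.60. The summed level of the thalamic list was 981 and 840 CPM in WAS replicates 1 and 3, 486 CPM in WAS replicate 2 and 409 to 485 CPM in the control libraries, so that its 2 highest libraries were those of Lhx9. Tcf7l2, a transcription factor of thalamic neurons, had a log2 fold change of 2.20 (SE 0.47), Slc17a6, the vesicular glutamate transporter of subcortical neurons, of 1.78 (SE 0.44), and Ntng1, an axon guidance gene, of 1.12 (SE 0.31). Of 14 midbrain dopamine and subthalamic genes, 10 were tested and 9 met the criteria, all higher. Of these 10, Slc6a3, En1, En2, Barhl2 and Chrna6 passed the filter on low counts only through the WAS libraries and had to differ. Among the other 5, 4 met the criteria, with a median of 1.66 (2.66 over all 10). These 5 summed to 93.0 and 133.7 CPM in WAS replicates 1 and 3, 51.0 CPM in WAS replicate 2 and 39.6 to 46.4 CPM in the control libraries. The whole list of 14 summed to 127.5, 52.5 and 170.8 CPM in WAS replicates 1, 2 and 3 and to 40.6 to 47.7 CPM in the controls. Ddc and Th, enzymes of dopamine synthesis, had log2 fold changes of 1.66 (SE 0.33) and 2.01 (SE 0.46). With limma on quantile-normalized counts 2 thalamic and 4 midbrain genes met the criteria, without WAS replicate 3 the midbrain list had 5, and without WAS replicates 1 and 3 the lists had 0 and 1. In the same libraries Slc6a3, the dopamine transporter gene, had 107, 0 and 100 counts against 0, 3 and 3. Lmx1a did not share this order, being highest in WAS replicate 2. In that library En1, Slc6a3 and Foxa2 had at most 1 count, whereas Th (43 counts against 13, 19 and 34), Ddc (130 against 99, 98 and 81) and Barhl2 (10 against 3, 0 and 0) lay above every control library, as Lmx1a did. Since the RNA came from whole tissue, a smaller number of cells of a type and less RNA per cell cannot be told apart, and the part of the regions sampled in the results of the members was not tested.

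Lists tied to Isl1 and Lhx8 showed the other order. Basal forebrain cholinergic genes summed to 70.3 CPM in WAS replicate 2 and 59.5 CPM in control replicate 3, to 8.05 CPM in WAS replicate 1 and to between 24.2 and 31.4 CPM in the remaining libraries. WAS replicate 2 and control replicate 3 were the 2 highest libraries for all 5 genes of that list that were tested. Of the 5, 0 met the criteria, 0 had an unadjusted p under 0.05 and the median log2 fold change was 0.35. Without WAS replicate 2, 2 of them met the criteria, both lower under the WAS label, without control replicate 3, 1 did, higher, and without WAS replicates 1 and 3, 2 of 6 did, both higher. Striatal direct pathway genes, whose list did not include Isl1, summed to 555 and 580 CPM in WAS replicates 1 and 3 and to between 1066 and 1436 CPM in the other 4 libraries. Of 8 such genes tested, 4 had WAS replicates 1 and 3 as the 2 lowest libraries, among them Drd1, the dopamine receptor of the direct pathway, with 350, 3380 and 608 counts against 2026, 2374 and 2678. For 1 gene, Chrm4, these were the 2 highest. The criteria were met by 0 of the 8, and 2 had an unadjusted p under 0.05 in opposite directions. Ebf1 was higher in all 3 WAS libraries, with 229, 218 and 212 counts against 174, 174 and 154 (log2 fold change 0.43, SE 0.13), and Foxp1 was lower (-0.49, SE 0.22). Without WAS replicate 2, 4 of the 8 met the criteria, all lower under the WAS label, and without WAS replicates 1 and 3, 3 met them, all higher. MGE-derived interneuron genes, the list around Lhx6, had 0 of 16 past the criteria, 0 with an unadjusted p under 0.05 and a median of -0.11, with a sum between 1135 and 1320 CPM. When WAS replicate 2 was left out, 2 of the 16 met them, both lower under the WAS label, and when WAS replicates 1 and 3 were, 1 did, higher.

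**Figure D4:**
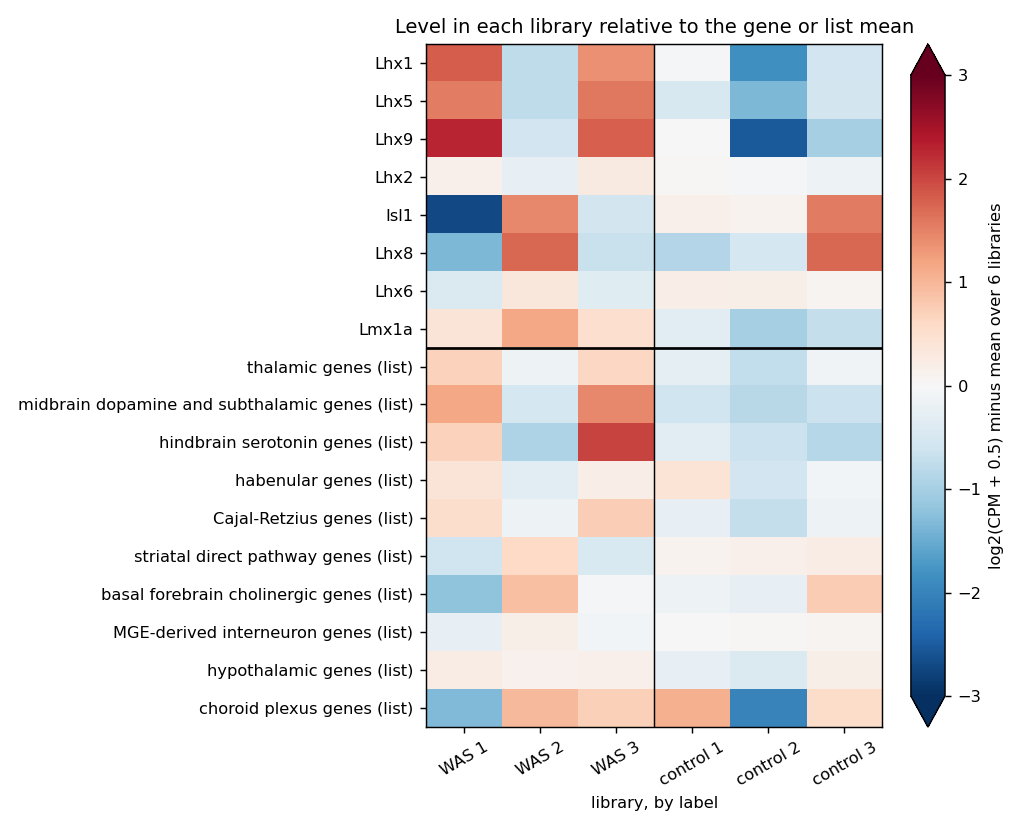
Level of each member (above the line) and of 10 marker lists (below the line, mean over the genes of the list) in each library, as log2(CPM + 0.5) minus the mean over the 6 libraries, red for higher and blue for lower. Lhx1, Lhx5, Lhx9 and the thalamic and midbrain lists were red in WAS replicates 1 and 3, and Isl1, Lhx8 and the cholinergic list were red in WAS replicate 2 and control replicate 3.

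Some of the other lists shared these orders in their sums, and the calls of several depended on single libraries. Serotonin genes summed to 23.5, 5.08 and 41.9 CPM in WAS replicates 1 to 3 against 7.33, 5.30 and 4.81 CPM in the controls. Cajal-Retzius genes summed to 120.6, 66.9 and 112.4 CPM against 56.3, 47.5 and 69.5 CPM. Hypothalamic sums were highest in WAS replicate 2 (368.5 CPM) and control replicate 3 (329.2 CPM), with 167.0 to 183.9 CPM elsewhere. Habenular and choroid plexus sums followed neither order. Among habenular genes 2 of 11, Nhlh2 and Irx2, met the criteria, Irx2 having passed the filter only through the WAS libraries, and the median was -0.098, with 0 left when WAS replicate 1, WAS replicate 3 or control replicate 2 was dropped and 1, lower, without WAS replicates 1 and 3. Of the hypothalamic genes 1 of 12 tested did, Barhl1, with a median of 0.30, while 4 did without WAS replicate 2, 0 without control replicate 2 and 3, all higher, without WAS replicates 1 and 3. In the serotonin list, Gata3 was the 1 gene of 3 tested past the criteria, with 160, 0 and 143 counts against 26, 9 and 1, while 3 of 4 genes passed without WAS replicate 2 and 1 of 3, lower, without WAS replicates 1 and 3. With DESeq2 or limma, 0 genes of the serotonin list met the criteria, and with limma 0 of the hypothalamic list did. The Cajal-Retzius list was for the early-born cortical cells that are known to express Lhx1 and Lhx5. It had 2 of 6 genes past the criteria, Ebf3 and Calb2, and a median of 0.66 with 6 of 6 above 0. Of these 6, Trp73 passed the filter only through the WAS libraries. For 4 of the 6, WAS replicates 1 and 3 were the 2 highest libraries, and 0 of the 6 met the criteria with limma or without these 2 libraries. Of the defining genes of these cells, Reln had 387, 329 and 380 counts against 337, 307 and 319, and Trp73 had 2, 8 and 9 against 6, 0 and 5. Choroid plexus genes had 0 of 9 past the criteria, 0 with an unadjusted p under 0.05, and sums between 18.3 and 1260 CPM, while 1 gene passed when WAS replicate 2 or control replicate 1 or 2 was dropped.

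The protein partners of the family were not among the genes called. Of 10 genes for LIM cofactors and LIM-only proteins, 0 met the criteria, 1 had an unadjusted p under 0.05 and the median log2 fold change was -0.023. Lmo4 and Ssbp3 are named because most counts of the list were theirs. Lmo4, which encodes a LIM-only protein that competes for LDB1, had 3474, 4209 and 3554 counts with the WAS label and 5259, 5740 and 5107 with the control label. The groups of Lmo4 did not overlap, and its log2 fold change was -0.47 (SE 0.11, edgeR adjusted p = 0.477), under a fold change of 1.5. Ssbp3, which encodes a protein that stabilises LDB1, was at -0.026 (SE 0.086), and Ldb1 itself was at -0.18 (SE 0.14). When WAS replicate 2 was left out, 3 of the 10 genes met the criteria, 1 higher and 2 lower. The 3 remaining LIM homeodomain genes of the mouse, Lhx3, Lhx4 and Isl2, stayed under the filter on low counts. Lhx4 had 0 counts in every library, Isl2 had 0 to 4, and Lhx3 had 12 counts in WAS replicate 3 and at most 3 elsewhere.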

How the data were processed

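RNA of 6 forebrain hemispheres was sequenced as 1 library per mouse. The authors made the deposited read counts with QuantSeq 3' mRNA-Seq, single-end reads of 75 bp, Bowtie2 alignment and counting of unique and multiple alignments with Bedtools. The submitters' processing notes name mm10, and the annotation is not given in the sources used here. The quantile normalization used in the study was not applied to the deposited values. Library totals set the precision (counting intervals are exact Poisson 95%, without molecular identifiers). After TMM scaling, edgeR 4.0.16 (limma 3.58.1, R 4.3.3) gave quasi-likelihood tests across the 15239 genes with a mean log2(quantile-normalized count + 1) of at least 2, with Benjamini-Hochberg adjustment. Standard errors (SE) follow from the fold change and its F value, and 95% intervals of fold changes are normal intervals from them. Of 200 genes changed by 1 on the log2 scale in simulated data, the criteria recovered 87.5%, with 256 unchanged genes called. An edgeR adjusted p under 0.05 recovered 66%, with 10 unchanged genes called. Each gene was drawn independently, so orders of libraries shared by many genes were not simulated. The recovery is over genes of all spreads and is not that of the members.

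Members and the 16 gene lists were chosen with earlier results of these data known, and some genes sit in several lists. The result of the telencephalic excitatory list is not reported here. Besides the members, the genes named are those nearest in pattern, and per list up to 3 past the criteria. Pcp2, Car8, Gabra6, Cdhr1, Doc2g, Tbx21, Slc6a3, Foxa2, En2, Barhl2, Chrna6, Drd1, Chrm4, Ebf1, Foxp1, Reln, Trp73 and Ldb1 were chosen after their values were seen. A promoter window was found for 8 of the 9 members in RefSeq (GRCm38.p6). Alternatives were total-count scaling, DESeq2 1.42.0, limma on quantile-normalized log2 counts, other filters, the replicate number as a block and left-out libraries.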

Additional observations from a re-analysis of the deposited data

How the results depend on the processing

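The direction of Lhx1, Lhx5, Lhx9 and Lmx1a was kept in each other setting with all or 5 libraries in which they were tested. With all 6 libraries, 1 setting changed the number of members called from 4 by over 1.5 times, to 1 with limma on quantile-normalized log2 counts, and with each library left out it lay between 3 and 6. Without WAS replicates 1 and 3, added after seeing the data, it was 0, with log2 fold changes of -0.29 for Lhx1, -0.067 for Lhx5, -0.25 for Lhx2, 0.16 for Lhx6, 0.66 for Isl1 and 1.32 for Lhx8, all of opposite sign to those from all libraries. With each library left out, Isl1 ranged from -2.47 to 0.073, Lhx2 from -0.029 to 0.22 and Lhx8 from -3.19 to 2.10, turning sign at 0.42 and 0.31 for Lhx8 when WAS replicate 1 or 3 was dropped. Over all genes, the number past the criteria lay between 264 and 825 with each library left out (825 without WAS replicate 2), and the number past an adjusted p of 0.05 between 0 and 491 (491 without WAS replicate 2). The latter was 0 with all libraries, 22 with DESeq2, 49 with the replicate block and 1 without WAS replicates 1 and 3. The labels give same-numbered libraries only a shared number, and whether they also shared a litter or day was not tested. The correlations of their deviations from the group means were small, at 0.0784, 0.0987 and 0.0928. Each library correlated best with its own number. With the replicate block Lhx9 had a log2 fold change of 2.76 with an adjusted p of 0.00322, and 4 members were called. The cause of these shifts was not tested. Members with few counts, such as Lmx1a and Lhx8, have wide counting intervals, and why Lmx1b had 0 counts was not tested.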

Other observations

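Pituitary genes gave few counts, with Gh, the growth hormone gene, at 45, 3 and 0 counts with the WAS label and 2, 1 and 0 with the control label, while Pou1f1, a defining factor of the lineage, had 0 counts in every library. The cerebellar list had 1 of 5 genes tested past the criteria and the olfactory bulb list 1 of 4, Barhl1 and Uncx, and 0 in either list without WAS replicates 1 and 3. Slc6a4, the serotonin transporter gene, had 14, 0 and 97 counts in the libraries labelled WAS and 0 in each control library, with WAS replicate 3 the highest. Oxt, the oxytocin gene of the hypothalamus, had 105, 130 and 33 counts against 6, 3 and 445, with the highest value in control replicate 3, 1 of the 2 libraries highest in Isl1 and Lhx8. These genes were chosen after their values were seen.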
